A study of Mus musculus with 36 samples.

Results

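Messenger RNA of the hippocampal field CA3 was compared between mice exposed to a context and mice kept in the home cage, with 3 libraries in each group, which are 6 of the 36 libraries of the series. The 2 groups were found by their labels of tissue and treatment, and every gene that passed a filter on low counts was described, 16145 of 37315 genes. All groups were wild-type C57BL/6 mice that lived singly and had daily handling of 3 minutes on each of 5 days. The home cage group went through no behavioural session, and the context group was placed in a context without a shock. Tissue was taken 90 minutes after the behaviour. The third CA3 group, given a foot shock and called fear here, entered the same fit with its 3 libraries, and the 6 context and home cage libraries of the neighbouring field CA1 served for a comparison between fields. The labels give neither sex nor age, and they do not say that the replicates are separate mice, so p-values speak only of library-to-library spread, which may be technical. Libraries of CA1 and CA3 may share mice.

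CA3 pyramidal neurons receive the mossy fibres of the dentate gyrus and excite each other through recurrent collaterals, a circuit known for the rapid storage of new places. When neurons fire strongly, calcium and cAMP signalling switch on immediate early genes such as Fos, Egr1 and Arc within minutes. Their protein products and the same kinases then drive a later wave of genes that act at synapses, in secretion and in the shutdown of the signal. Chaperones of the endoplasmic reticulum fold the membrane and secreted proteins that such a neuron makes, and genes for ribosomes and the respiratory chain carry the cost of protein synthesis and of firing.

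The 9 CA3 libraries held 23826481 to 34063047 counts. Levels are given as CPM, the counts scaled to a common library size with TMM factors, and changes as log2 differences from the fit with their standard error. In bulk tissue, fewer cells of a type and less RNA per cell cannot be told apart. The first principal component of the 9 libraries, with 42.8% of the variance, ran from home cage 2 at a score of 77.0 to context 2 at -69.2. Context 3 lay at -47.1, and context 1 at -3.45 was nearer to home cage 3 at 9.53 than to the other context libraries. The 3 fear libraries lay between, from -14.3 to 19.7. The same libraries stood apart by the base composition of the transcripts. With the genes in 5 bins of equal number by GC content (quintiles), the GC-richest quintile had a median deviation from the 9-library mean of 0.65 (log2) in home cage 2, -0.79 in context 2 and -0.48 in context 3, against 0.02 in context 1 and 0.12 to 0.18 in the other home cage libraries. In the GC-poorest quintile it was -0.25 in home cage 2, 0.46 in context 2 and 0.29 in context 3. The share of counts on ribosomal protein genes was 0.675% to 0.818% in context and 0.952% to 1.64% in home cage. Whether library composition takes part in the changes below was not tested, and values with offsets for GC content and transcript length, fitted per library, are set beside the groups of genes.

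**Figure D1:**
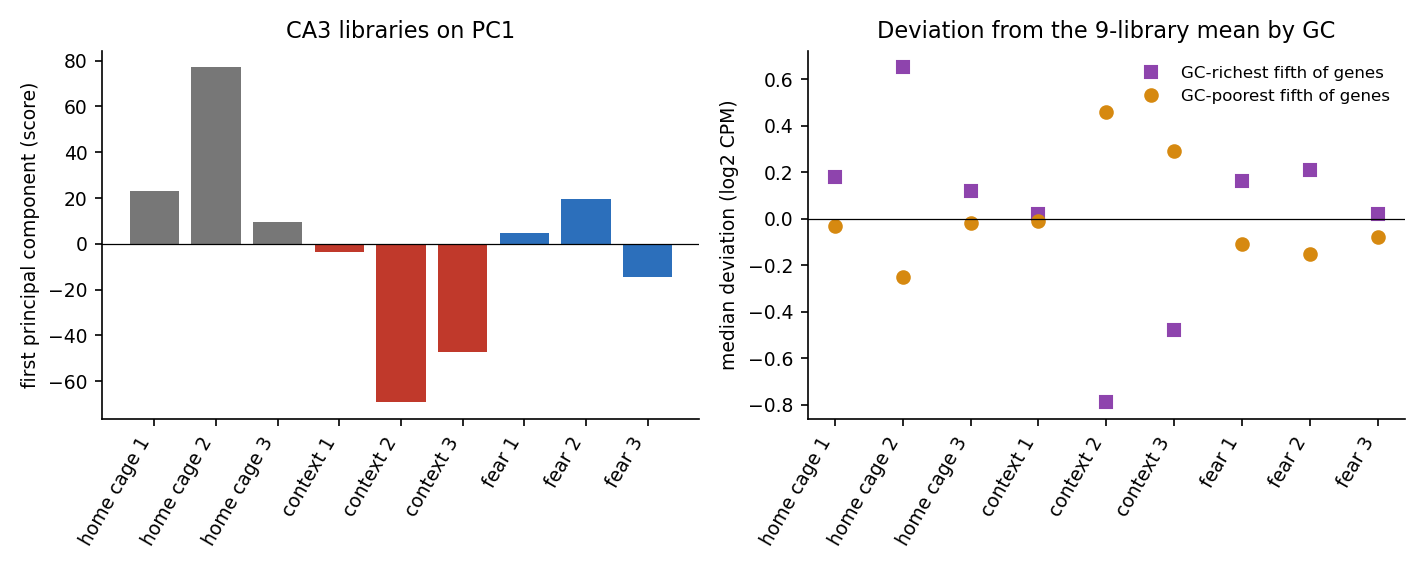
Left, score of each CA3 library on the first principal component; right, median deviation (log2 CPM) of the GC-richest and GC-poorest quintiles of genes from the mean of the 9 libraries. Home cage 2 and context 2 lie at opposite ends of both, and context 1 lies close to home cage 3.

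After context exposure, 11 of 37 genes of the delayed activity programme and 11 of 36 chaperone and folding genes of the endoplasmic reticulum were called higher in CA3. Of 78 cytosolic ribosomal protein genes 49 were called lower, and of 77 nuclear genes of the respiratory chain 32. In all, 2243 of 16145 genes passed edgeR's quasi-likelihood test at a Benjamini-Hochberg adjusted p under 0.05, which is 13.9% of the genes tested. Of these, 931 were higher after context (5.77%) and 1312 lower (8.13%), and these shares are the background for the counts of each gene list below. The excess of falls turned with all 36 libraries in the fit (2600 higher, 2465 lower) and without home cage 3 (1703 higher, 1666 lower). The falls were larger. Of the called genes, 712 fell and 23 rose by at least 2-fold, and the median log2 change was 0.62 in the called rises and -1.05 in the called falls. The 2 groups did not overlap in 2173 of the 2243 called genes and in 34.1% of all genes tested.

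The calls lie close under the threshold, since the smallest adjusted p was 0.045. Without context 1 the count was 5429 and without home cage 3 it was 3369, but without any other single library, fear libraries included, it was 0. With the 6 context and home cage libraries alone it was 0, with 4854 genes at an unadjusted p under 0.05. Without both context 2 and home cage 2 it was also 0, with 2529 genes at an unadjusted p under 0.05. Of the 2243 genes, 2234 kept their direction and an unadjusted p under 0.05 without each of the 9 libraries in turn. They had been chosen at a stricter p in the same libraries, so this count was largely fixed in advance. It does not show that single calls hold. Each call below carries the limit that the calls depend on the set of libraries.

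The genes that rose differed from those that fell in composition and length. The median GC content of the longest transcript was 44.2% in the rises, 57.0% in the falls and 49.7% in all genes tested, and the median length was 5117, 2568 and 3264 bases. From the GC-poorest to the GC-richest quintile of genes the median log2 change went from 0.35 over 0.23, 0.04 and -0.25 to -0.73. Called falls made up 27.8% of the GC-richest quintile and 0.124% of the GC-poorest. With the offsets the medians of the 5 quintiles were between -0.12 and -0.08, and 134 genes were called, 0.83% of those tested. The smallest adjusted p was then 0.0498, so every call with the offsets lies right at the threshold. Whether a gene stays called with the offsets is thus a narrow distinction, here and below. Of the 134 genes, 96 were also called without the offsets, in the same direction, 22 higher and 74 lower. Of the 2243 genes, 1402 kept their direction with an unadjusted p under 0.05 under the offsets. For most calls below that end with the offsets the value or the count is given, and a call without either is not shown to hold.

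**Figure D2:**
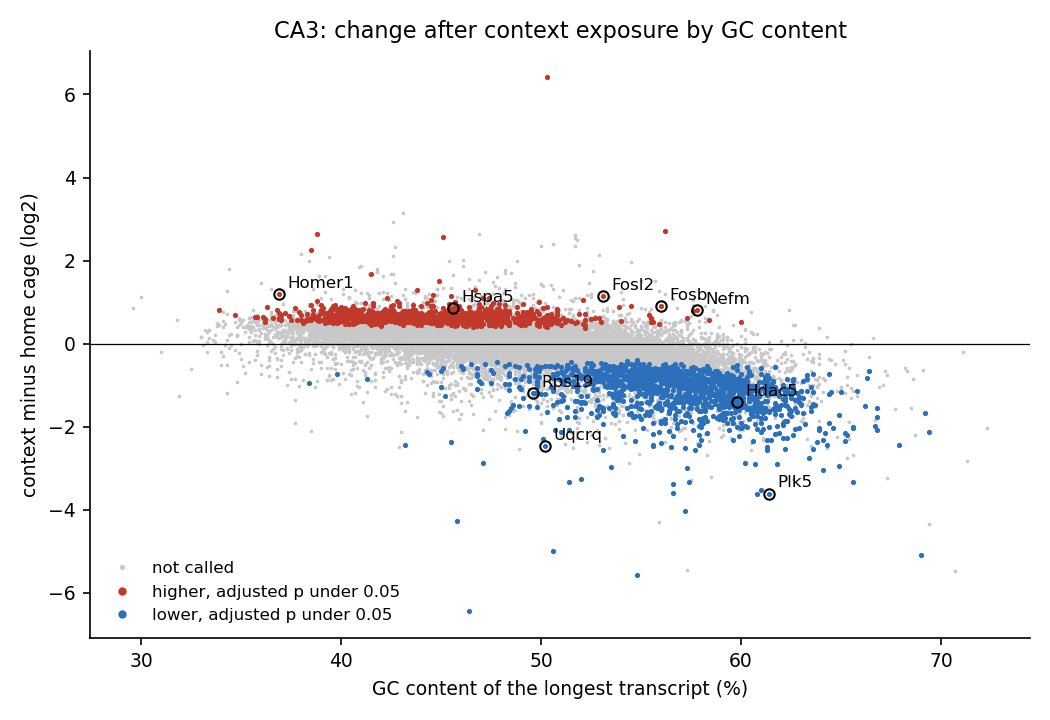
Change in CA3 after context exposure (log2, context minus home cage) of each gene with an annotated transcript against the GC content of its longest transcript, with genes called higher in red and lower in blue. Called falls crowd at high GC content and called rises at low, while Fosl2, Fosb and Nefm are rises at high GC content.

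Among 37 delayed activity-regulated genes tested, 11 rose (29.7%) and 2 fell (5.41%), and the median change of the list was 0.34, against -0.009 over all genes. With the offsets the median was 0.29 and 1 gene was called, and the list's median GC content of 50.1% is near that of all genes. Without home cage 2 and context 2 it was 0.29. The list was chosen with earlier results of these data known. Homer1 (ENSMUSG00000007617, GRCm38 chromosome 13, 93299635 to 93405129) encodes a scaffold that ties metabotropic glutamate receptors to calcium stores, with a short form induced by activity. It stood at 92.5, 70.1 and 113 CPM in home cage 1 to 3 and at 165, 282 and 187 CPM in context 1 to 3. Every context library lay above every home cage library, with context 2 the highest. The change was 1.2 ± 0.22 (adjusted p = 0.045), and it was 0.94 to 1.38 without each library in turn. With the offsets it was 0.66 (adjusted p = 0.0498), and without home cage 2 and context 2 it was 0.78.

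Other members of the delayed list rose in all 3 context libraries. Nr4a2, an orphan nuclear receptor, was 30.3, 28.3 and 29.5 CPM in home cage and 57.6, 72.1 and 41.3 in context (log2 0.96 ± 0.18). Tll1, a metalloprotease of the tolloid family, rose from 4.78, 3.08 and 4.73 to 8.39, 10.1 and 8.62 CPM (1.10 ± 0.26). The home cage values of Nr4a2 were close together, and neither gene had an overlap between groups. Kcna1, a potassium channel subunit that limits repetitive firing, rose from 262, 194 and 363 to 450, 484 and 553 CPM (0.86 ± 0.23). Rgs4, a brake on G protein signalling, rose from 187, 117 and 168 to 245, 260 and 291 CPM (0.75 ± 0.20). Ptgs2, the inducible cyclooxygenase, rose by 0.79 ± 0.21 and Sorcs3, a sorting receptor, by 0.59 ± 0.14. Nfil3, a transcriptional repressor that is also in the clock list, rose by 0.90 ± 0.26, and with the offsets its value was 1.23 (adjusted p = 0.0507). The falls were Kcnj4, an inward rectifier potassium channel, from 14.9, 30.1 and 15.4 to 12, 4.58 and 4.56 CPM (-1.51 ± 0.40), and Plk3, a polo-like kinase (-1.16 ± 0.32). With the offsets the values of Nr4a2, Tll1 and Kcna1 were 0.73, 0.79 and 0.73, and none was called. Ptgs2, Rgs4, Sorcs3, Kcnj4 and Plk3 were then at 0.37, 0.44, 0.36, -0.77 and -0.50, and were not called either. The neurotrophin gene Bdnf did not pass, at 54.4, 46.1 and 62.7 CPM in home cage and 59.4, 82.2 and 74.6 in context (0.41 ± 0.17, adjusted p = 0.106), and with the offsets its value was -0.04.

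The promoters of 3 called rises of the delayed list carry the full cAMP response element TGACGTCA, the sequence bound by the activity-dependent factor CREB, and are printed for that reason. They are RefSeq sequences of GRCm38.p6, the 250 bases before the RefSeq start, on the gene's strand and with the element in capitals, for Scg2 at chr1:79440027-79440276 (minus strand), Pcsk1 at chr13:75089607-75089856 (plus strand) and Plk2 at chr13:110394794-110395043 (plus strand).
Scg2: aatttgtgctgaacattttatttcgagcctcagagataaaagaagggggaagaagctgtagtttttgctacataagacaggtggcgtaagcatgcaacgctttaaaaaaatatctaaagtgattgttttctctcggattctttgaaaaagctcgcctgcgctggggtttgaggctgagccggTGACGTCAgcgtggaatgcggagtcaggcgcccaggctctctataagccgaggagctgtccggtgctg
Pcsk1: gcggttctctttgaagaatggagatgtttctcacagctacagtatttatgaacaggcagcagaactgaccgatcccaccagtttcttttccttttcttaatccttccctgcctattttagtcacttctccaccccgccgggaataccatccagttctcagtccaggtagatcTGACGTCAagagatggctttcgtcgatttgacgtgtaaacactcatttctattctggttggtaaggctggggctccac
Plk2: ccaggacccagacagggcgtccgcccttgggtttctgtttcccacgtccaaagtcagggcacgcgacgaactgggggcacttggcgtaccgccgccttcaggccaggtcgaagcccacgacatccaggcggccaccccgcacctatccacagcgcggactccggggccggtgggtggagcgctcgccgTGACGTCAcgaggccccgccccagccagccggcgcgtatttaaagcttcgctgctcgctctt
The element starts at -68, -78 and -62 relative to the transcription start. Of 26 genes of the list with a matched promoter, these 3 hold it on either strand in any of their promoters, all 3 among the 10 that rose. Of 32851 promoters of the same length 1.55% hold it, which is a share of promoters and not of genes. Other elements and other gene lists were searched as well. In the list of rapid activity-regulated genes, 3 of 20 matched genes hold this element, and 0 of the 3 called rises there do. A match is a description of letters and not of binding.

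Scg2, the precursor of secretoneurin in secretory granules, was 171, 149 and 156 CPM in home cage and 227, 261 and 193 in context (log2 0.51 ± 0.15, adjusted p = 0.0459). Pcsk1, the convertase that cleaves prohormones in those granules, rose from 22.8, 10.8 and 14.0 to 29.8, 31.7 and 27.3 CPM (0.90 ± 0.25). Plk2, a kinase that acts in synaptic scaling, rose from 171, 190 and 182 to 229, 280 and 230 CPM (0.45 ± 0.13). None of these had an overlap between groups, and with the offsets their values were 0.29, 0.44 and 0.25, without a call.

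Of 24 rapid activity-regulated genes tested, 3 rose (12.5%) and 2 fell (8.33%, near the 8.13% of all genes), and the median change was -0.35, or 0.17 with the offsets and -0.04 without home cage 2 and context 2. Its median GC content was 55.8%. Fosl2 (ENSMUSG00000029135, chromosome 5, 32135801 to 32157842), an AP-1 transcription factor of the Fos family, was 22.9, 13.1 and 22.1 CPM in home cage and 41.6, 54.0 and 33.2 in context. The change was 1.15 ± 0.22 (adjusted p = 0.045), 1.13 with the offsets, 0.73 without home cage 2 and context 2, and 0.93 to 1.30 without each library in turn. Fosb, another AP-1 factor, was 4.57, 4.75 and 4.55 CPM in home cage and 11.7, 8.08 and 6.20 in context (0.91 ± 0.24, and 1.28 with the offsets). Context 1, the library nearest to home cage on the principal component, had the highest Fosb level of the 3 context libraries. Nr4a3, an orphan nuclear receptor, rose by 0.71 ± 0.19, which was 0.40 with the offsets (adjusted p = 0.0824).

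The falls in the rapid list were Arc and Srf. Arc (ENSMUSG00000022602, chromosome 15, 74669083 to 74672570), which acts in the removal of AMPA receptors from synapses, was 78.2, 124 and 60.3 CPM in home cage and 52.0, 40.5 and 36.9 in context. Its change was -1.02 ± 0.24 (adjusted p = 0.045), with the offsets it was -0.28 (adjusted p = 0.264), and without home cage 2 and context 2 it was -0.64. Srf, a transcription factor of the immediate early promoters, fell by 0.72 ± 0.21 on the log2 scale and turned to 0.38 with the offsets. Further members, chosen after their values were seen, did not pass. Egr1 was 47.1, 78.8 and 64.2 CPM in home cage and 83.4, 87.6 and 72.1 in context (0.36 ± 0.19, adjusted p = 0.188), and with the offsets it was called at 0.88. The value of Egr1 was 0.18 without home cage 1 and 0.54 without home cage 2. Fos was 5.41, 5.07 and 3.69 CPM in home cage and 7.45, 9.79 and 6.28 in context (0.73 ± 0.36, adjusted p = 0.166). The 3 context libraries lay above the 3 home cage libraries for Fos. Npas4, a factor of inhibitory synapses, had a value of -0.28 ± 0.27, which was -0.55 without context 1, -0.13 without context 3, -0.15 without home cage 2 and -0.47 without home cage 3. Nr4a1 was at -0.88 ± 0.29 (adjusted p = 0.058). Junb was 3.53, 34.2 and 3.08 CPM in home cage and 3.05, 0.642 and 0.493 in context, so home cage 2 alone was high.

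**Figure D3:**
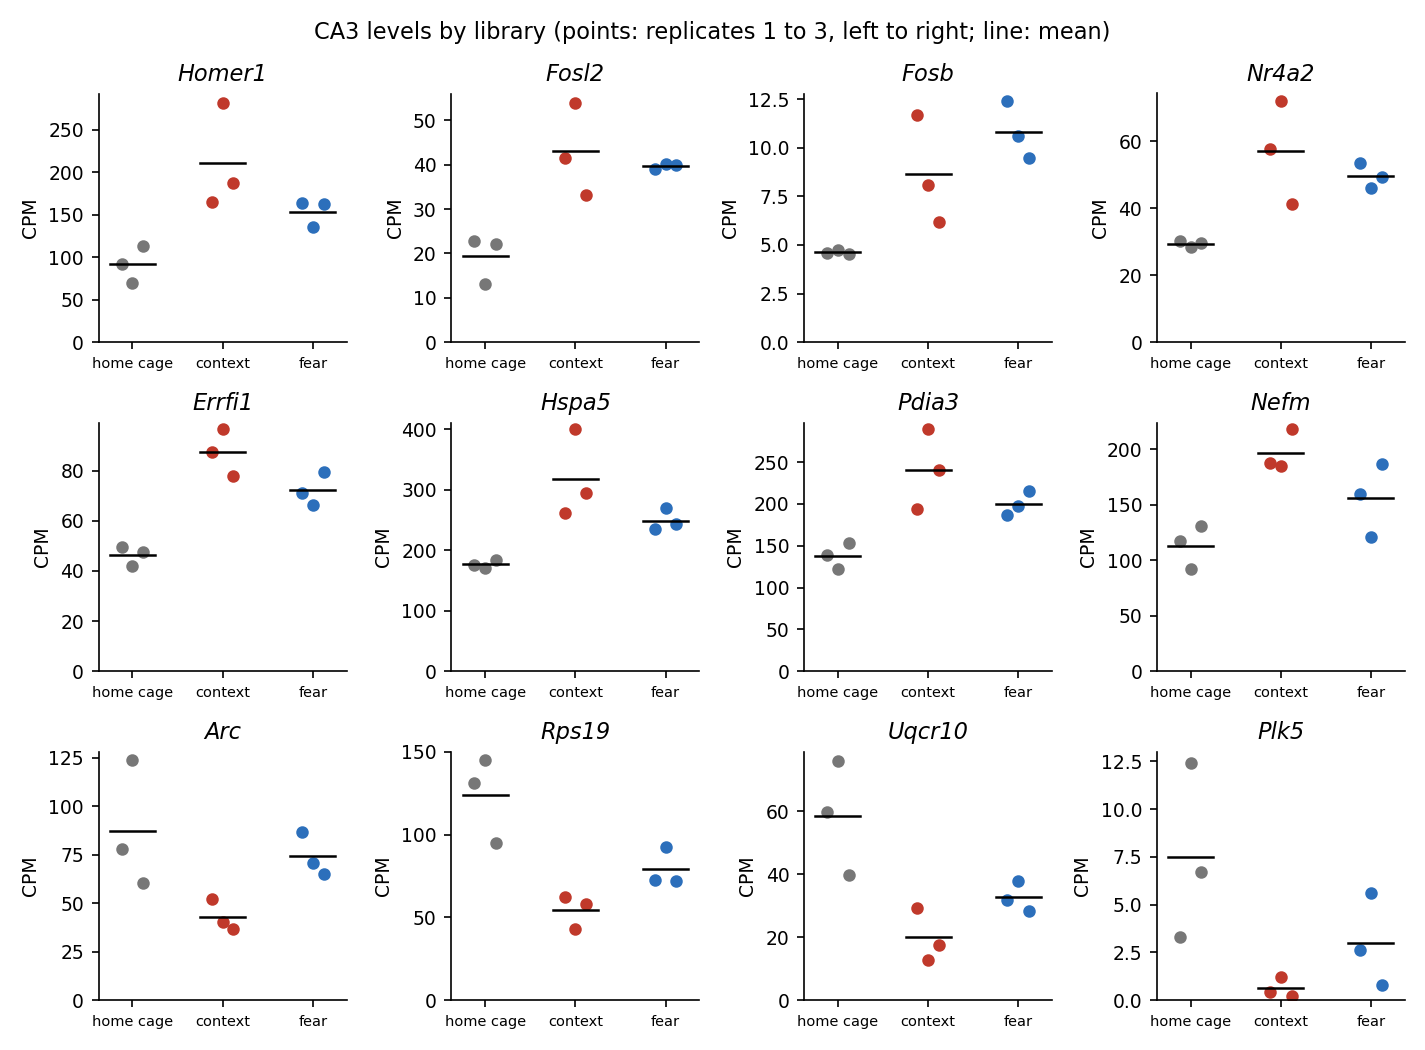
Level (CPM) of 12 genes in each CA3 library, with the 3 home cage libraries in grey, the 3 context libraries in red and the 3 fear libraries in blue, and the mean of each group as a line. Homer1, Fosl2, Nr4a2, Errfi1, Hspa5, Pdia3 and Nefm are higher in every context library than in any home cage library, and Arc, Rps19, Uqcr10 and Plk5 are lower.

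Among 22 glucocorticoid-responsive genes tested, 2 rose and 2 fell (9.09% each), with a median of 0.06. Errfi1, an inhibitor of the EGF receptor that activity also induces, kept, across the fits without each library, the smallest p of the rises with a mean log2 CPM of 1 or more. It was 49.5, 41.8 and 47.6 CPM in home cage and 87.6, 96.5 and 77.8 in context (log2 0.91 ± 0.14, adjusted p = 0.045). Its value was 0.84 to 0.99 without each library in turn and 0.69 with the offsets (adjusted p = 0.0498). Klf9, a transcription factor with glucocorticoid response elements, rose by 0.57 ± 0.15. Mt2, a metallothionein, fell by 1.91 ± 0.55 on the log2 scale, from 54.6, 101 and 23.7 to 28.2, 8.04 and 11.3 CPM, with an overlap of context 1 and home cage 3. Tsc22d4 fell by 1.38 ± 0.37, and its value was -0.87 without home cage 2. With the offsets Klf9, Mt2 and Tsc22d4 were at 0.29, -1.29 and -0.82, and none was called. The textbook targets Fkbp5 and Sgk1, named here after their values were seen, did not pass (0.45 ± 0.15 and 0.69 ± 0.22, adjusted p = 0.0618 and 0.054). Sgk1 was 188 CPM in context 1, 96.4 and 100 in context 2 and 3, and 75 to 82.8 in home cage. Of 19 circadian clock genes only Nfil3 passed, and the median was 0.00.

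Of 36 chaperones and folding enzymes of the endoplasmic reticulum tested, 11 rose (30.6%) and 1 fell (2.78%), and 24 did not pass. The median change was 0.26, or 0.17 with the offsets, under which 3 were called higher, and 17 were higher in every context library than in any home cage library. Over all genes tested, 16.9% had no overlap and were higher. The list's median GC content was 49.2%, and without home cage 2 and context 2 its median change was 0.19 with 0 called. The promoters of Hspa5, Calr, Canx and Dnajc3 hold the endoplasmic reticulum stress element and are printed for that reason. The element is CCAAT followed, after 9 bases, by CCACG, and is the site through which ATF6 and NF-Y act in the unfolded protein response. They are RefSeq sequences of GRCm38.p6, the 250 bases before the RefSeq start, on the gene's strand and with the element in capitals. They lie at chr2:34771840-34772089 (plus strand), chr8:84846932-84847181 (minus), chr11:50325674-50325923 (minus) and chr14:118937682-118937931 (plus).
Hspa5: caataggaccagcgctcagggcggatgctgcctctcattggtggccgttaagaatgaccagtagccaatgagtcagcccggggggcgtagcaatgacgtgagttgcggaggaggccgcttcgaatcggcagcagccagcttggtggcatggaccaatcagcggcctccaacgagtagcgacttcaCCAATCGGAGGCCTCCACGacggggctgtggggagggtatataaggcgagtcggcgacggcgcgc
Calr: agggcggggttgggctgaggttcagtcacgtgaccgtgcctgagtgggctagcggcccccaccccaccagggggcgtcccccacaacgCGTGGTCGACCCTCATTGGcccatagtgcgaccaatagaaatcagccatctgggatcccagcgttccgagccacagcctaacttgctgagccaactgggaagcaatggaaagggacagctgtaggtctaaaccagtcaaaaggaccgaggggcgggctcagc
Canx: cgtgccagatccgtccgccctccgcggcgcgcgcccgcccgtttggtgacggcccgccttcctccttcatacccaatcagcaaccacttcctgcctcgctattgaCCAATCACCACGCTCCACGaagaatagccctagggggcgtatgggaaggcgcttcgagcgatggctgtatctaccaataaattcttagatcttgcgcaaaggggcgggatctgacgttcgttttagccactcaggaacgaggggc
Dnajc3: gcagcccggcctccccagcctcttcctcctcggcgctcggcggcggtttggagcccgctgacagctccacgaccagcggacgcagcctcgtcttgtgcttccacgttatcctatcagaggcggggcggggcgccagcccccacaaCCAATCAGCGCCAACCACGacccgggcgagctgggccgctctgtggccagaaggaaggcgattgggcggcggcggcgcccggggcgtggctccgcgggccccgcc
The element starts at -65, -162, -145 and -105 relative to the transcription start, and in Calr it is read on the opposite strand. It was found on either strand, in any of a gene's promoters, in 9 of 30 matched genes of the list, among them 4 of the 10 that rose. Of 32851 promoters of the same length 0.113% hold it, which is a share of promoters and not of genes.

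Hspa5 (ENSMUSG00000026864, chromosome 2, 34771970 to 34777547) encodes BiP, the main Hsp70 of this compartment. Its level was 175, 171 and 184 CPM in home cage and 261, 400 and 294 in context. The home cage libraries were alike and all context libraries lay above them. The change was 0.85 ± 0.16 (adjusted p = 0.045), 0.65 to 0.98 without each library in turn and 0.52 with the offsets (adjusted p = 0.0507). Pdia3, a disulfide isomerase for glycoproteins, was 139, 122 and 153 CPM in home cage and 194, 289 and 240 in context (0.80 ± 0.16), and with the offsets it stayed called at 0.56 (adjusted p = 0.0498). The lectin chaperones Canx and Calr rose by 0.64 ± 0.16 and 0.51 ± 0.14. Calr was 258, 242 and 278 CPM in home cage and 335, 393 and 381 in context. The co-chaperone Dnajc3 rose by 0.52 ± 0.12. With the offsets Canx, Calr and Dnajc3 were at 0.21, 0.45 and 0.05, without a call.

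Transcription factors and quality control genes of the same pathway were among the rises. Xbp1, whose spliced product drives the unfolded protein response, was 49.7, 53.1 and 53.3 CPM in home cage and 69.4, 89.5 and 66.8 in context (log2 0.53 ± 0.14). With the offsets Xbp1 was 0.72 and stayed called (adjusted p = 0.0498). Gene counts do not show its splicing. Atf6, a membrane-bound factor of the same response, rose by 0.63 ± 0.19. Pdia4 rose by 0.58 ± 0.16, Edem1, which sends misfolded glycoproteins to degradation, by 0.53 ± 0.16, and the co-chaperones Dnajb9 and Dnajb11 by 0.68 ± 0.19 and 0.48 ± 0.14. With the offsets Atf6, Pdia4, Edem1, Dnajb9 and Dnajb11 were at 0.21, 0.39, 0.11, 0.31 and 0.43, and none was called. The fall was Fkbp2, a prolyl isomerase, from 48.9, 54.9 and 38.5 to 31.8, 18.6 and 28.2 CPM (-0.86 ± 0.19), which turned to 0.18 with the offsets.

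Of 22 cytosolic and mitochondrial heat shock genes tested, 7 rose (31.8%) and 1 fell (4.55%), with a median of 0.27, 0.16 with the offsets and 0.28 without home cage 2 and context 2. The list's median GC content was 47.2%. The Hsp110 genes Hspa4l, Hspa4 and Hsph1, nucleotide exchange factors of Hsp70, rose by 0.76 ± 0.18, 0.73 ± 0.18 and 0.64 ± 0.17. Hspa4 was 250, 188 and 290 CPM in home cage and 345, 432 and 430 in context. Hspd1, the mitochondrial chaperonin, rose by 0.60 ± 0.16, the factor Hsf2 by 0.59 ± 0.16, and the Hsp40 genes Dnaja1 and Dnajb4 by 0.55 ± 0.16 and 0.50 ± 0.15. With the offsets none of the 7 was called: Hspa4l, Hspa4, Hsph1 and Hspd1 were at 0.18, 0.41, 0.33 and 0.38, and Hsf2, Dnaja1 and Dnajb4 at 0.14, 0.03 and 0.02. The fall was Hsf1, the main activator of the heat shock response, from 35.8, 40.3 and 33.6 to 24.4, 13.7 and 18.5 CPM. Its change was -0.95 ± 0.19 (adjusted p = 0.045), and it stayed called with the offsets at -0.80 (adjusted p = 0.0498). Its direction was opposite to that of the 7 rises.

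Neurofilament genes, chosen after their values were seen, rose at a high GC content. Nefm (ENSMUSG00000022054, chromosome 14, 68082590 to 68124846), the medium subunit of the axonal intermediate filaments, was 117, 92.5 and 131 CPM in home cage and 188, 185 and 218 in context (log2 0.80 ± 0.18). Its GC content was 57.8%, and with the offsets its value was 1.36 (adjusted p = 0.0498). Nefh, the heavy subunit, rose from 50.4, 37.5 and 45.6 to 70.1, 59.6 and 67.3 CPM (0.56 ± 0.15), and Ina, internexin alpha, by 0.51 ± 0.15. Nefl, the light subunit, was at 0.61 ± 0.19 (adjusted p = 0.0511). All 4 genes were higher in each context library than in any home cage library, and 3 of 4 were called.

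Genes with large called rises, at a mean log2 CPM of 1 or more and without overlap of the groups, had varied roles. Tent5a, a poly(A) polymerase, rose from 5.62, 6.90 and 6.22 to 12.2, 21.4 and 12 CPM (log2 1.29 ± 0.26). Atp7a, the copper pump, rose from 9.45, 4.17 and 8.63 to 13.0, 18.8 and 18.6 CPM (1.18 ± 0.27). Oxtr, the oxytocin receptor, was 14.8, 7.21 and 12.4 CPM in home cage and 25.2, 18.5 and 28.3 in context (1.06 ± 0.30, adjusted p = 0.0459). Zdbf2, an imprinted gene, rose from 27.2, 18.9 and 30.5 to 56.0, 55.6 and 51.8 CPM (1.09 ± 0.18). Palm2 and the ubiquitin ligase gene Rnf128 rose by 1.09 ± 0.29 and 1.04 ± 0.26. With the offsets Tent5a, Atp7a and Zdbf2 were at 0.78, 0.77 and 0.56, and Oxtr, Palm2 and Rnf128 at 1.03, 0.86 and 0.73, and none of the 6 was called.

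Among the rises with the smallest p across the fits without each library, Lrrc8c, a subunit of the volume-regulated anion channel, rose from 29.3, 24.7 and 35.2 to 59.0, 59.9 and 54.6 CPM (log2 0.96 ± 0.15), and with the offsets its value was 0.53 (adjusted p = 0.0502). Plpp6, a lipid phosphatase, rose by 0.76 ± 0.15 and stayed called with the offsets at 0.61. Also called both ways, and named after their values were seen, were Frzb, a secreted Wnt antagonist (0.88 ± 0.19), Ranbp9 (0.72 ± 0.15) and Arf6, a small GTPase of membrane recycling (0.52 ± 0.13).

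The series is titled for Cbln4 and Neo1. Neo1, which encodes the receptor neogenin, was 84.9, 85.5 and 102 CPM in home cage and 122, 138 and 121 in context, without overlap. Its value was 0.16 with the offsets (adjusted p = 0.243), against 0.49 ± 0.13 without them. Cbln4, a secreted synaptic organizer, was 9.79, 7.60 and 9.79 CPM in home cage and 10.8, 14.2 and 17.2 in context, again without overlap, and did not pass (0.63 ± 0.21, adjusted p = 0.0574). In the list of cerebellins, C1q-like ligands, neogenin and their partners, 4 of 24 genes rose (16.7%) and none fell, with a median of 0.19, and with the offsets none was called. Unc5d, a netrin receptor, rose from 28.6, 16.2 and 38.2 to 52.2, 51.6 and 61.6 CPM (0.99 ± 0.25). The neurexin gene Nrxn3, for a presynaptic partner of cerebellins and neuroligins, rose by 0.73 ± 0.20. With the offsets Unc5d and Nrxn3 were at 0.53 and 0.36.

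Of 43 synaptic adhesion genes tested, 9 rose (20.9%) and 3 fell (6.98%), with a median of 0.40 that was 0.06 with the offsets and 0.13 without home cage 2 and context 2. Nlgn3, a neuroligin, rose from 43.5, 44.9 and 57.6 to 71.8, 78.6 and 83.8 CPM (log2 0.68 ± 0.15). Flrt3, a ligand of latrophilins, rose from 57.2, 40.9 and 60.4 to 84.5, 83.1 and 106 CPM (0.79 ± 0.18). Lrrc4c, the netrin-G1 ligand, rose by 0.65 ± 0.15. Ntng2, netrin-G2, fell from 15.0, 34.7 and 20.5 to 11.6, 5.56 and 9.24 CPM (-1.41 ± 0.34). None of the list was called with the offsets, where Nlgn3, Flrt3, Lrrc4c and Ntng2 were at 0.36, 0.41, 0.27 and -0.50. Among 23 clustered protocadherins, which give neurons a surface identity, Pcdha11 (0.72 ± 0.20) and Pcdhb16 (0.74 ± 0.22) rose and none fell, and with the offsets they were at 0.38 and 0.26, without a call. Pcdha transcripts share their last exons, so the count of a single member is uncertain.

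Of 14 GABA receptor genes, 3 rose (21.4%) and none fell. These were Gabrg3 from 19.9, 11.3 and 21.3 to 30.2, 38.4 and 35.3 CPM (log2 0.98 ± 0.23), Gabra3 (0.58 ± 0.17) and Gabra2 (0.56 ± 0.16), all subunits of the GABA-A receptor. The list's median was 0.52, or 0.12 with the offsets and 0.25 without home cage 2 and context 2, at a median GC content of 42.5%. Of 22 glutamate receptor genes, 2 rose (9.09%) and 3 fell (13.6%), not far from the shares of all genes, with medians of 0.34 and 0.02. The rises were the AMPA receptor subunit Gria4 (0.54 ± 0.15) and the metabotropic receptor Grm5 (0.68 ± 0.19). The falls were the NMDA receptor subunits Grin2c (-1.10 ± 0.24) and Grin2d (-1.16 ± 0.33) and the kainate receptor subunit Grik5 (-1.04 ± 0.30). Grin2c was 32.3, 52.7 and 33.0 CPM in home cage and 24.1, 15.4 and 15.5 in context. With the offsets no receptor gene of either list was called. Grin2c, Grin2d and Grik5 were then at -0.25, -0.15 and -0.23, Gria4 and Grm5 at 0.10 and 0.13, and Gabrg3, Gabra3 and Gabra2 at 0.45, 0.22 and 0.02.

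Of 31 potassium channel genes, 3 rose (9.68%) and 2 fell (6.45%). Besides Kcna1, the rises were Kcnd2 (log2 0.61 ± 0.18) and Kcnd3 (0.71 ± 0.22), subunits of the A-type current. The falls were Kcnt1, a sodium-activated channel (-0.81 ± 0.23), and Kcnh3, a channel of the ether-à-go-go family. Kcnh3 fell from 29.8, 61.6 and 28.1 to 20.2, 9.24 and 10.9 CPM (-1.56 ± 0.35) and stayed called with the offsets at -0.70 (adjusted p = 0.0498). Kcnd2, Kcnd3 and Kcnt1 were then at 0.17, 0.42 and -0.69, without a call. Of 27 sodium, calcium and HCN channel genes, 3 rose (11.1%) and 4 fell (14.8%). Among the rises were Scn2a (0.70 ± 0.21) and the auxiliary subunit Cacna2d3 (0.65 ± 0.17). The T-type calcium channel genes Cacna1g and Cacna1h fell together (-1.47 ± 0.30 and -1.26 ± 0.36), with Hcn3 (-1.21 ± 0.34) and Cacnb3 (-0.75 ± 0.22). Cacna1g was 36.3, 67.8 and 29.0 CPM in home cage and 19.3, 17.0 and 11.5 in context, and with the offsets it was -1.02 (adjusted p = 0.0574). With the offsets Cacnb3 turned to 0.07, and Scn2a, Cacna2d3, Cacna1h and Hcn3 were at 0.18, 0.48, -0.68 and -0.68, without a call.

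Among 26 postsynaptic scaffold genes there were 4 rises and 4 falls (15.4% each), and with the offsets 1 rise, Homer1, and no fall. Homer1, Dlg2 (log2 0.66 ± 0.20), Magi2 (0.52 ± 0.16) and Gphn, the scaffold of inhibitory synapses (0.59 ± 0.16), rose. Shank1 (-1.10 ± 0.29), Shank3 (-1.18 ± 0.31), Dlgap3 (-2.02 ± 0.53) and Nsmf (-0.94 ± 0.20) fell. Shank3 was 159, 309 and 143 CPM in home cage and 129, 62.9 and 77.4 in context, and its GC content was 62.4%. With the offsets Dlg2, Magi2 and Gphn were at 0.16, 0.32 and 0.38, and Shank1, Shank3, Dlgap3 and Nsmf at -0.39, -0.38, -0.93 and -0.23. Dlgap3 was 93.9, 280 and 76.1 CPM in home cage and 62.9, 19.5 and 27.9 in context, and the abundance in home cage 2 was the highest of all. Without home cage 2 the changes of Dlgap3, Shank1 and Shank3 were -1.2, -0.68 and -0.75. Of 32 presynaptic release genes, the calcium sensor Syt1 rose from 1600, 1150 and 2140 to 2600, 3000 and 3060 CPM (0.82 ± 0.22). Pclo, a scaffold of the active zone, rose by 0.85 ± 0.25, and Syt7 fell by 0.49 ± 0.14 on the log2 scale. These 3 calls of the 32 are near the share of all genes in each direction, and with the offsets Syt1, Pclo and Syt7 were at 0.47, 0.44 and -0.34, without a call.

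Of 51 chromatin regulators, 6 rose (11.8%) and 4 fell (7.84%), and with the offsets 1 was called. The histone demethylase gene Kdm7a rose from 93.8, 77.4 and 112 to 134, 239 and 159 CPM (log2 0.91 ± 0.20), and the remodeler Chd1 by 0.64 ± 0.15. The histone methyltransferase gene Kmt2d fell (-0.89 ± 0.23). Hdac5, a histone deacetylase that shuttles out of the nucleus on activity, was 88.8, 177 and 81.4 CPM in home cage and 60.9, 32.4 and 37.1 in context (-1.41 ± 0.31). Hdac5 was the 1 that stayed called with the offsets, at -0.75 (adjusted p = 0.0498), and Kdm7a, Chd1 and Kmt2d were at 0.29, 0.09 and -0.43. Notch1, named after its values were seen, did so too (-1.53 ± 0.37, and -1.25 with the offsets). Of 328 zinc finger genes with Zfp symbols, 6 rose (1.83%) and 22 fell (6.71%), both below the shares of all genes. Their median was 0.14, but -0.15 with the offsets, where 0 were called.

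**Figure D4:**
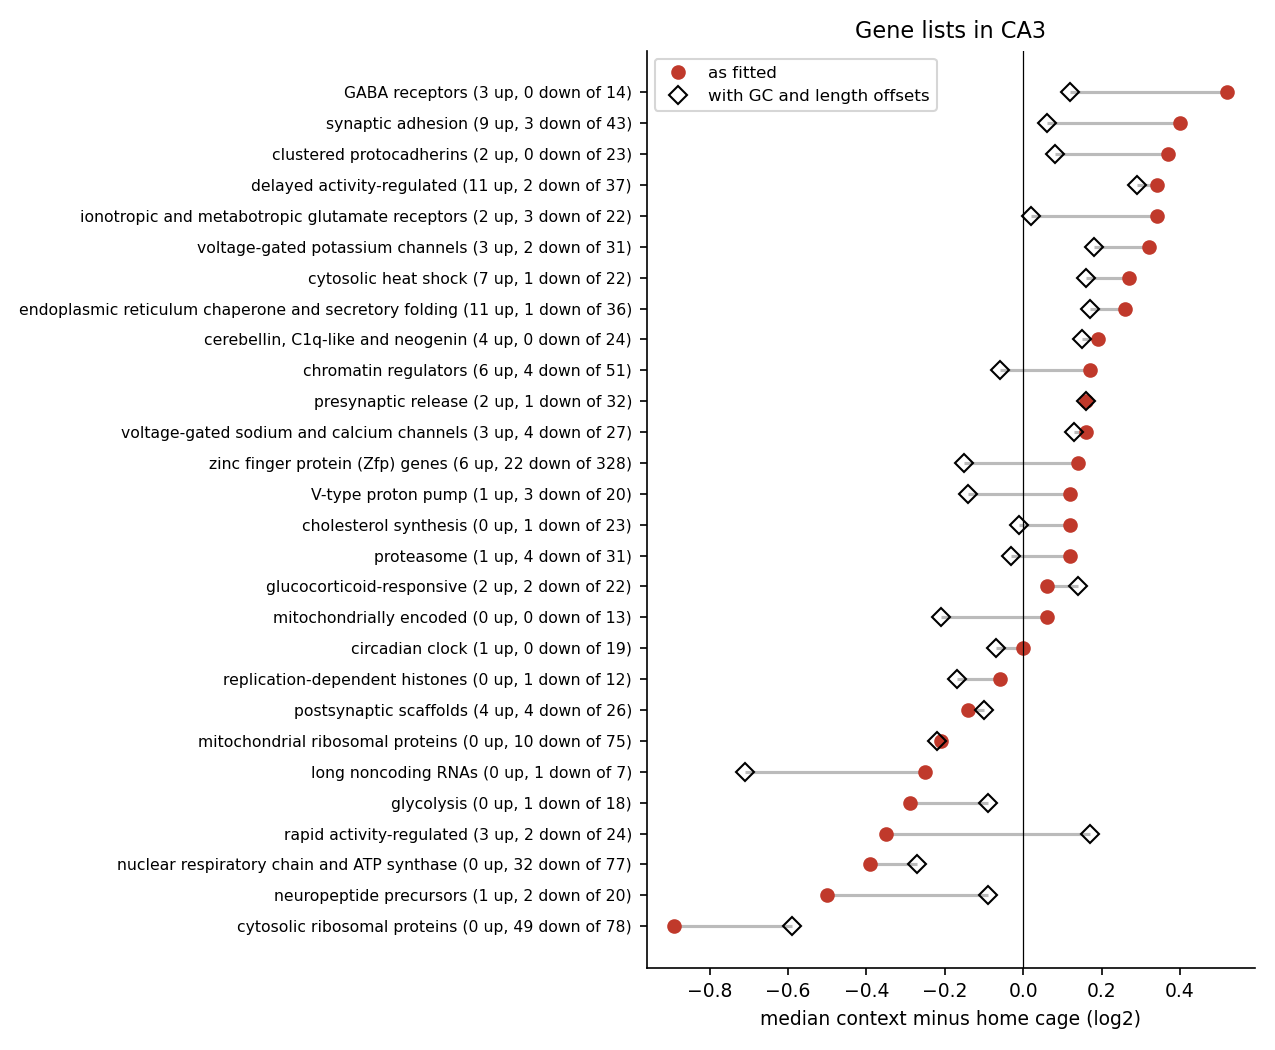
Median log2 change in CA3 after context exposure over the tested genes of each pathway or RNA quality list, as fitted (red) and with offsets for GC content and length (open diamonds), with the numbers of called genes beside the names. Cytosolic ribosomal proteins have the lowest median as fitted and GABA receptors the highest, and the medians of 7 lists cross 0 with the offsets, among them rapid activity-regulated genes, chromatin regulators and the V-type proton pump.

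Of 78 genes for cytosolic ribosomal proteins tested, 49 fell (62.8%) and none rose, with a median of -0.89, or -0.59 with the offsets and -0.58 without home cage 2 and context 2, at a median GC content of 51.0%. With the offsets 10 were called lower, and without home cage 2 and context 2 none. The summed level of all 81 such genes with a count, tested or not, was 7090 to 8260 CPM in context, 9270 to 15200 in home cage and 7970 to 9850 in fear. In the small subunit 21 of 32 genes fell (median -0.98), and in the large subunit 28 of 46 (median -0.85). Rps19 (ENSMUSG00000040952, chromosome 7, 24884371 to 24889806), of the small subunit, was 131, 145 and 94.6 CPM in home cage and 62.5, 42.9 and 57.8 in context. The change was -1.19 ± 0.19 (adjusted p = 0.045), -1.34 to -1.04 without each library in turn and -1.30 with the offsets. Rpl38 (-0.95 ± 0.19), of the large subunit, turned to 0.01 with the offsets. The largest falls were of genes with their highest level in home cage 2. Rplp1 was 149, 446 and 79.0 CPM in home cage and 51.4, 12.7 and 20.4 in context (-2.99 ± 0.72), and Rpl36 was 16.7, 67.3 and 6.77 against 4.98, 0.855 and 1.48 (-3.61 ± 0.92). Without both home cage 2 and context 2 their values were -1.67 and -1.85, and without home cage 2 alone that of Rpl36 was -2.25. Many ribosomal protein genes have processed pseudogenes of near-identical sequence, so single counts are uncertain.

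Of 77 nuclear genes of the respiratory chain and ATP synthase, 32 fell (41.6%) and none rose, with a median of -0.39, -0.27 with the offsets and -0.28 without home cage 2 and context 2. With the offsets 4 were called lower. By complex, 15 of 37 genes of complex I fell, 1 of 4 of complex II, 3 of 9 of complex III, 7 of 10 of complex IV and 6 of 17 of the ATP synthase. Uqcr10, a subunit of complex III, was 59.6, 75.8 and 39.8 CPM in home cage and 29.2, 12.9 and 17.4 in context (log2 -1.55 ± 0.30, and -1.13 with the offsets, adjusted p = 0.0498). Uqcrq, of the same complex, was 21.1, 79.2 and 16.5 CPM in home cage and 10.1, 4.23 and 6.61 in context (-2.47 ± 0.57), and its change was -1.42 without home cage 2. Ndufa2 and Ndufa7 of complex I fell (-1.76 ± 0.36 and -1.49 ± 0.32), and Atp5e of the ATP synthase by 0.77 ± 0.16 on the log2 scale. Of the 13 genes encoded by the mitochondrial genome 0 were called in either direction, and their median of 0.06 turned to -0.21 with the offsets. Of 75 mitochondrial ribosomal protein genes, 10 fell (13.3%) and none rose, among them Mrpl14 (-1.52 ± 0.32) and Mrpl34 (-1.87 ± 0.49, and -1.2 without home cage 2). With the offsets they were at -0.61 and -0.97, without a call.

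Of 31 proteasome genes, 4 fell (12.9%) and 1 rose (3.23%), with a median of 0.12. Psmb3 (log2 -0.72 ± 0.18), Psmb5 (-0.89 ± 0.23), Psmb6 (-0.76 ± 0.21) and Psmd4 (-0.68 ± 0.18) fell, and Psmd1 rose (0.59 ± 0.15). With the offsets none was called, with Psmb5 at -0.27 and Psmd1 at 0.34. Of 20 genes of the V-type proton pump, which acidifies synaptic vesicles and lysosomes, 3 fell (15.0%) and 1 rose (5.0%), with a median of 0.12. Atp6v1f (-1.05 ± 0.21), Atp6v0b (-0.85 ± 0.22) and Atp6v0c (-1.40 ± 0.39) fell and Atp6ap2 rose (0.61 ± 0.18). With the offsets only Atp6v1f stayed called, at -0.69, and Atp6v0b, Atp6v0c and Atp6ap2 were at -0.30, -1.36 and 0.25. Atp6v0c was 169, 309 and 133 CPM in home cage and 124, 40.8 and 65.9 in context. In glycolysis, Aldoc fell from 887, 845 and 637 to 568, 412 and 453 CPM (-0.72 ± 0.18) and stayed called with the offsets at -0.69. It is also a marker of astrocytes. In cholesterol synthesis Mvk alone passed (-1.38 ± 0.31, and -0.90 with the offsets, adjusted p = 0.0509). Of 20 neuropeptide precursors tested, Cck (-1.39 ± 0.39) and Pnoc (-1.15 ± 0.34) fell, and Scg2 rose. Without home cage 2 the values of Cck and Pnoc were -0.64 and -0.73, and with the offsets they were -0.60 and -1.09, without a call.

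The steadiest falls across the fits without each library were of genes of low to moderate level. Slc25a34, a mitochondrial carrier, was 3.23, 4.01 and 3.69 CPM in home cage and 1.16, 0.941 and 0.985 in context (log2 -1.82 ± 0.29). Uqcc2, an assembly factor of complex III, fell from 33.7, 48.0 and 25 to 16.1, 11.2 and 11.8 CPM (-1.45 ± 0.23). Nhp2, of the particles that modify ribosomal RNA, fell (-1.23 ± 0.21), as did Use1, a SNARE protein of the Golgi to endoplasmic reticulum route (-1.46 ± 0.25), and Plcd1, a phospholipase C (-1.40 ± 0.25). Further falls were those of Zfand2b (-1.26 ± 0.21), Commd4 (-1.44 ± 0.25) and Klhdc8b (-1.72 ± 0.31). With the offsets, Slc25a34 was at -1.2 (adjusted p = 0.0507) and Zfand2b at -0.42 (adjusted p = 0.12), without a call. Uqcc2, Nhp2, Use1, Plcd1, Commd4 and Klhdc8b stayed called.

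Several of the largest falls were of genes with a far higher level in home cage 2 than in any other library. Ccdc85b was 2.96, 61.7 and 2.32 CPM in home cage and 0.908, 0.0428 and 0.411 in context (log2 -5.56 ± 1.48). Without home cage 2 and context 2 it was -1.98. Prr7, which acts at synapses and in the nucleus, was 0.740, 20.7 and 0.488 CPM in home cage and 0.400, 0.0428 and 0.164 in context (-5.09 ± 1.43). Metrn, a secreted factor, fell from 20.8, 61.1 and 12.2 to 7.48, 4.06 and 5.62 CPM (-2.45 ± 0.50), and Ssbp4 (-2.45 ± 0.70) and Tmem121 (-2.76 ± 0.57) fell too. The uncharacterised gene 1110065P20Rik was 1.38, 14.5 and 0.763 CPM in home cage and 0.254, 0.171 and 0.0821 in context (-4.98 ± 1.11). In each of these the home cage 2 value was more than 2-fold above any other. Plk5, described with the cell markers, is also among the largest falls and was less uneven in home cage. Without home cage 2 the changes were -2.50 for Ccdc85b, -2.61 for 1110065P20Rik, -1.54 for Prr7, -1.52 for Metrn, -1.30 for Ssbp4 and -1.83 for Tmem121. With the offsets none of these was called, and Prr7, Metrn, Ssbp4 and Tmem121 were at -2.76, -1.75, -1.13 and -1.48.

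Markers of cell types were checked beside these results. None of the 11 CA3 pyramidal markers was at 0 in all CA3 libraries, and their summed level was 1900 to 2200 CPM in context and 1350 to 1900 in home cage. Of these 11, 2 fell, among them Bok (log2 -0.73 ± 0.18), and Trhr rose. Trhr, the receptor of thyrotropin-releasing hormone, was 0.135, 0.429 and 0.397 CPM in home cage and 0.908, 1.92 and 1.81 in context (2.26 ± 0.52), and Bok turned to 0.27 with the offsets. None of the 11 was called with the offsets. The abundant marker Cpne4 was 252, 153 and 276 CPM in home cage and 329, 343 and 370 in context (0.61 ± 0.21, adjusted p = 0.0667). Marker genes in these paragraphs were named after their values were seen.

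RNA of neighbouring cells was present in every library. The summed level of 12 dentate granule markers was 130 to 398 CPM in context and 175 to 313 in home cage. Of these markers, 2 fell. Plk5 was 3.33, 12.4 and 6.68 CPM in home cage and 0.436, 1.2 and 0.205 in context (log2 -3.61 ± 0.80), and Sema5b fell by 1.08 ± 0.26 on the log2 scale. With the offsets neither was called, and Plk5 was at -2.5. With the dentate marker level as a covariate, 0 of the 16145 genes were called, with 5132 at an unadjusted p under 0.05. The changes were then 1.34 for Homer1, 1.25 for Fosl2, 1.03 for Hspa5, -1.03 for Arc and -1.28 for Rps19, as large as without the covariate or larger. Other changes were smaller than without it, among them Oxtr (0.64, from 1.06), Nefm (0.61, from 0.8) and Rgs4 (0.56, from 0.75). Plk5 was at -2.39, from -3.61, but it is itself among the 12 markers that make up the covariate. Its smaller value there is therefore partly built in. The summed level of 6 CA1 markers was 96.0 to 168 CPM in context and 156 to 359 in home cage, with 0 called. Of 6 CA2 markers, Amigo2 rose (0.62 ± 0.18), and with the offsets none of the 6 was called. The part of neighbouring fields in the results was not tested beyond this.

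Several markers of blood and of microglia were called lower after context, against 8.13% of all genes. Of 5 blood markers, 4 fell (80.0%), and their summed level was 9.5 to 19.9 CPM in context, 31.5 to 54.2 in home cage and 15.4 to 19.6 in fear. Hba-a1, an alpha globin, was 5.01, 14.1 and 4.48 CPM in home cage and 2.36, 0.599 and 1.11 in context (log2 -2.52 ± 0.54). Hba-a2 (-1.63 ± 0.34), Hbb-bs (-1.52 ± 0.33) and Hbb-bt (-1.40 ± 0.31) followed, and near-identical globin copies share reads. Of 10 microglial markers, 4 fell: the complement genes C1qa (-1.45 ± 0.37), C1qb (-1.21 ± 0.25) and C1qc (-1.46 ± 0.42), and Tyrobp (-0.81 ± 0.21). Their summed level was 266 to 304 CPM in context and 308 to 462 in home cage. Of 10 astrocyte markers 3 fell, among them Aldoc and Gfap, the filament of astrocytes (-0.67 ± 0.20). Without home cage 2 the values of C1qc and Gfap were -0.97 and -0.41. With the offsets no blood or microglial marker was called, and the list medians were -1.26 and -0.37, against -1.52 and -0.69 without them. Without home cage 2 and context 2 these medians were -1.16 and -0.47, and again no marker of either list was called. None of 9 oligodendrocyte or 9 endothelial markers passed.

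Whether the shock added to the context was asked by comparing fear with context directly, without the home cage libraries. By edgeR, 0 of 16145 genes were called (0.0%), with 3785 at an unadjusted p under 0.05 and a smallest adjusted p of 0.15. DESeq2 called 778 genes, and edgeR called 3383 without context 1. Of the genes with the smallest p, Extl1, a glycosyltransferase of heparan sulfate, was 62.3, 60.9 and 57.8 CPM in fear, against 39.7, 33.2 and 29.2 in context and 47.4, 63.0 and 50.3 in home cage. The fear minus context difference was 0.82 ± 0.15 (adjusted p = 0.15). Trp53i11 was 39.6, 46.0 and 33.7 CPM in fear and 25.4, 16.3 and 15.5 in context (1.06 ± 0.20). The fear values of Extl1 lie within the home cage range, and those of Trp53i11 reach from within to above its home cage values of 32.7 to 40.7 CPM.

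Comparisons of context and of fear with home cage share the home cage libraries, so their values are only set side by side. Homer1 was 164, 135 and 162 CPM in fear, Fosl2 39.1, 40.1 and 39.9, and Fosb 12.4, 10.6 and 9.47. All 9 of these values lie above the home cage range of the gene. Hspa5 was 235, 270 and 243 CPM in fear and Nefm 160, 121 and 187, the lowest of which lies within the home cage range. Arc was 86.6, 71.0 and 65.0 CPM in fear, all within the home cage range and above the context range, and fear minus context was 0.78 ± 0.24 (adjusted p = 0.15). Rps19 was 72.6, 92.5 and 72.1 CPM in fear, between the other groups. Zdbf2 was 31.4, 31.7 and 42.3 CPM in fear, all below the context range (fear minus context -0.63 ± 0.18, adjusted p = 0.15).

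The difference between the context effects in CA3 and in CA1 was tested in a fit of 18 libraries of both fields. No gene of 16987 was called by edgeR (0.0%), with 3594 at an unadjusted p under 0.05 and a smallest adjusted p of 0.176, and DESeq2 called 46. Without CA3 context 1 edgeR called 2658. The CA1 value of Homer1 was 1.26, with a CA3 minus CA1 difference of 0.0 ± 0.37 (log2 ± SE). Fosb was 1.49 in CA1 (difference -0.54 ± 0.51) and Nr4a2 1.07 (-0.06 ± 0.43). Standard errors of this size allow differences that are a sizeable share of the changes, so the differences do not show that the fields act alike. The immediate early genes with falls in CA3 had positive values in CA1, Arc at 0.61 (difference -1.58 ± 0.60) and Srf at 0.19 (-0.86 ± 0.27), and neither difference passed. With the offsets the CA3 values of Arc and Srf were -0.28 and 0.38. The difference between fields was not fitted with the offsets.

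The genes with the smallest p of this difference had adjusted p of 0.176. Mfge8, a secreted bridge for phagocytosis, was 75.7, 101 and 64.7 CPM in CA3 home cage and 48.8, 29.3 and 34.0 in CA3 context, and 90.6 ± 21.5 and 104 ± 8.65 CPM (mean ± SD, n = 3) in CA1 home cage and context (difference -1.28 ± 0.27). Ngef, an exchange factor downstream of ephrin receptors, was 44.6, 60.7 and 44.9 CPM in CA3 home cage and 33.9, 27.0 and 23.7 in context, and 88.3 ± 19.3 and 115 ± 4.50 in CA1 (-1.18 ± 0.26). Cetn3, a centrin, was 37.7, 35.8 and 32.5 CPM in CA3 home cage and 39.4, 50.5 and 46.1 in context, and 49.9 ± 5.90 and 35.0 ± 0.703 in CA1 (0.90 ± 0.18). Zranb1, a deubiquitinase, and Rnf138, a ubiquitin ligase, rose in CA3 and had values of -0.32 and -0.38 in CA1 (differences 0.90 ± 0.18 and 1.25 ± 0.26). With the offsets Cetn3, Zranb1, Rnf138 and Ngef were at 0.1, 0.1, 0.26 and -0.46 in CA3, without a call. Mfge8 stayed called there at -0.63. For Mfge8 and Ngef the CA3 groups do not overlap and the means move down in CA3 and up in CA1. In CA1 alone, context against home cage had 0 of 16987 genes called in this fit, with 3246 at an unadjusted p under 0.05, and DESeq2 called 755. The CA1 count was 432 with a replicate block, 114 without the low-count filter and 513 without CA1 home cage 1. In the same fit 4463 genes were called in CA3, but 0 without CA3 context 2, context 3 or home cage 2. The CA1 values of ribosomal protein genes were below 0 in 32 of 32 small and 46 of 46 large subunit genes, against 31 and 46 in CA3, and none of them passed in CA1.

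**Figure D5:**
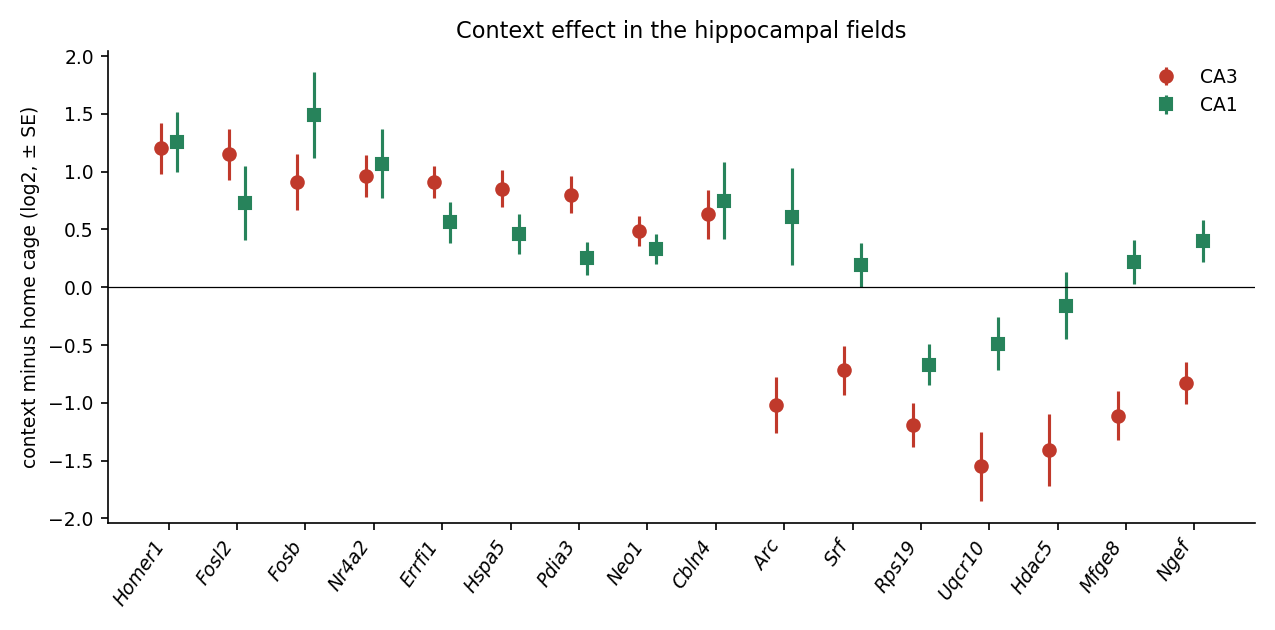
Context minus home cage (log2) of 16 genes in CA3 (red circles, 9-library fit) and CA1 (green squares, 18-library fit), with bars of 1 standard error. The rises of Homer1 and Nr4a2 lie at similar heights in both fields, while Arc, Srf, Mfge8 and Ngef lie below 0 in CA3 and above 0 in CA1. All values are without offsets for GC content and length, with which Srf was at 0.38 in CA3.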

How the data were processed

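Per the labels' protocols, polyadenylated RNA was extracted with TRIzol and made into stranded libraries. The authors deposited whole-number read counts per gene for 36 libraries. Trimmomatic 0.33, STAR 2.7.10b, HTSeq 2.0.1 and the mm10 genome are named in the submitters' processing notes; how they were run, strand and annotation included, is not given in the sources used here, and counts of overlapping, antisense and near-identical genes are uncertain. No line lacked a gene (0), and 35533 of 37315 identifiers (95.2%) matched a symbol in the GRCm38 annotation supplied with the files, which also gave GC content and length.

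The 9 CA3 libraries were fitted in edgeR 4.0.16 (R 4.3.3) with filterByExpr, TMM scaling and robust quasi-likelihood dispersion, and context minus home cage was tested with Benjamini-Hochberg adjustment at 0.05. The biological coefficient of variation was 0.234, with 6 residual degrees of freedom. The script was tested on simulated counts. Replicates differed by more than counting noise, with a chi-square per degree of freedom of 12.5 to 87.1. Offsets for GC content and length were fitted in each library by natural splines (5 degrees of freedom). The difference from CA1 was the interaction in 18 libraries. Alternatives were DESeq2 1.42.0, other size factors, no low-count filter, other library sets, a replicate block and omission of each library.

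Named genes were the largest and the steadiest calls at a mean log2 CPM of 1 or more, the smallest p-values and called members of each gene list, the smallest p-values of the fear and CA1 contrasts, Cbln4 and Neo1. Members and lists were chosen with earlier results of these data known. Results for some genes are not reported here.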

Additional observations from a re-analysis of the deposited data

How the results depend on the processing

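The count of genes called between context and home cage in CA3 was 2243 and moved with most settings. It was 5065 with all 36 libraries (2600 higher, 2465 lower), 4128 with DESeq2, 134 with the GC and length offsets, and 0 with the dentate marker level as a covariate, with the 6 context and home cage libraries alone, and without context 2 and home cage 2. It ranged from 0 to 5429 without each library in turn. It stayed within 1.5 times with RLE size factors (2155), without a filter on low counts (1944) and with non-robust dispersion (2260). Under the dentate covariate 5132 genes had an unadjusted p under 0.05. The changes of Homer1 (1.34) and Hspa5 (1.03) were not smaller, but those of Oxtr (0.64) and Rgs4 (0.56) were. The cause of these shifts was not tested.

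A replicate block, added as a term, gave 1330 calls, and the block together with the offsets 1312. The labels do not say that a number marks a shared mouse or day, and the deviations of same-numbered context and home cage libraries correlated at -0.1, -0.23 and 0.071, so the numbers are not taken as pairing. The block gave 0 calls for fear against context and for CA3 against CA1, as without it.

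Fear against context had 0 calls by edgeR, 778 by DESeq2 and 0 to 3383 without each library in turn. The CA3 minus CA1 difference had 0 calls by edgeR, 46 by DESeq2 and 0 to 2658 without each library in turn.

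Of 164 called genes that were named or checked, 32 stayed called with the offsets in the same direction, 127 were no longer called and 5 reversed. With the replicate block added to the offsets, 88 stayed called, 71 were no longer called and 5 reversed. The reversals with the offsets alone, and with the block added, were Srf (0.38 and 0.38), Fkbp2 (0.18 and 0.19), Cacnb3 (0.07 and 0.08), Rpl38 (0.01 and 0.00) and Bok (0.27 and 0.27). Among genes that were not called, Npas4 (0.06 and 0.06), Bdnf (-0.04 and -0.04) and Clock (-0.08 and -0.08) reversed.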

Other observations

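Markers of cell types that lie outside the comparisons above were checked as well. Of 12 interneuron markers 1 was higher and 1 lower after context, of 10 meningeal and mural markers 1 was higher and 3 lower, and of 7 choroid plexus and ependymal markers 1 was higher. None of 5 oligodendrocyte precursor markers and none of 5 markers of the subiculum and entorhinal cortex passed the test. Of 5 thalamic markers 1 was higher. With the offsets none of the markers of these cells was called. The part of these cells in the gene changes was not tested.

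Among noncoding RNAs, Snhg20, a host of small nucleolar RNAs, was lower after context (log2 -1.62 ± 0.46), and its value was -0.95 without home cage 2. The nuclear RNAs Neat1 and Meg3 had values of -0.71 and -0.39 and did not pass (adjusted p = 0.0906 and 0.151 by edgeR's quasi-likelihood test). The histone gene Hist1h1c was lower (-1.06), and its value was -0.70 without home cage 2. With the offsets Snhg20 and Hist1h1c were at -1.43 and -0.59, and neither was called.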
